A study of Homo sapiens with 4 samples.

Results

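The regions described here are 133 windows of 100 kb in which the enzalutamide-resistant prostate cancer line C4-2BER lacked many ATAC-seq peaks that its parent line C4-2B had. They were selected on the measured difference itself: chromosomes 1 to 22 of hg38 were divided into 28760 windows, of which 25850 held at least 1 peak of either line, and a window was kept where the number of C4-2B-only peaks exceeded the number of C4-2BER-only peaks by 8 or more. A line-only peak is an interval that no interval of the other list overlaps, and each peak was placed by its midpoint. The kept windows, called loss windows here, made up 0.515% of the windows with a peak. The opposite difference, 8 or more C4-2BER-only peaks in excess, occurred in 3 windows or 0.0116%. Both counts rest on how the lists are cut. When the C4-2B list was shortened to its strongest 118728 peaks, as many as the C4-2BER list holds, 5 loss windows and 12 windows of the opposite kind were left.

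ATAC-seq measures open chromatin by letting the Tn5 transposase cut accessible DNA and tag it for sequencing. The study prepared 4 libraries, 2 from each line. C4-2B is an androgen-responsive human prostate adenocarcinoma line, and C4-2BER, titled C4-2B_Enza_Resist, is a single line derived from it by long exposure to enzalutamide, a drug that blocks the androgen receptor and stayed in its medium, so that line and drug cannot be told apart. The 2 replicates of each line were merged before peaks were called, so there is 1 peak list per line, no spread between replicates can be given, and no difference between the lines was tested. The labels call C4-2BER neuroendocrine like. At the level of open promoters, 17 of 19 neuroendocrine genes had a peak within 2000 bp of a transcription start site (TSS) in both lists, 1 (NEUROD1) in C4-2BER alone and 1 in neither. Over all 18773 autosomal protein-coding genes, 78.7% had such a peak in both lists and 3.31% in C4-2BER alone. It was in both lists for 14 of 14 housekeeping and 34 of 36 androgen-regulated genes, so this count does not set neuroendocrine genes apart.

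Open sites in prostate adenocarcinoma cells are mostly distal enhancers. Forkhead proteins such as FOXA1 bind closed chromatin first and hold such sites open for the androgen receptor, which reads the androgen response element, a pair of inverted repeats with a short spacer. Enhancers of cell identity genes often lie in clusters, and a broad cluster raises the Tn5 signal between its peaks as well as in them. The windows show where in the genome the C4-2B peaks missing from C4-2BER lay close together.

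Among the C4-2B-only peaks in the windows, those with an androgen response element or a forkhead site close to the summit carry the letters through which these factors read DNA. The strongest of each kind, at most 1 from a window, are shown as the bases within 50 bp of the summit on the forward strand of hg38, with the matching letters in capitals.

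The first 3 hold the androgen response element. The IQGAP2 site is chr5:76496447-76496547 and lies in an intron of that scaffold gene, the IGF1R site is chr15:98746420-98746520 in an intron of the insulin-like growth factor receptor gene, and the GSE1 site is chr16:85615172-85615272, 1.87 kb from a TSS of GSE1.
IQGAP2 site: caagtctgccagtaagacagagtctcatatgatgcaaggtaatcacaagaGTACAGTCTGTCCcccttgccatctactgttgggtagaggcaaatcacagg
IGF1R site: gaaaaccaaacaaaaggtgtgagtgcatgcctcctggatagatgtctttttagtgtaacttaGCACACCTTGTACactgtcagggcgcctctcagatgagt
GSE1 site: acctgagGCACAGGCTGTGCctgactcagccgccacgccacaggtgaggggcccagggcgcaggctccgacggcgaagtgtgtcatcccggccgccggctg

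The IQGAP2 summit had 64 reads and a fold enrichment over local background of 13.1, and its match began at the listed summit base. The direction of the read shift used in peak calling is not clear from the sources used here. Listed summits, and the distances of matches from them, may therefore be offset by about 200 bp. Such an offset exceeds the 50 bp shown here and the 100 bp within which motif matches were counted. The IGF1R summit had 44 reads and a fold of 8.56. The GSE1 summit had the most reads of the 3, 158 and a fold of only 2.82, its background being high. By p-value they ranked at percentiles 83.8, 67.2 and 66.9 of the C4-2B list.

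The other 3 hold the forkhead motif, TGTTTAC or TATTTAC on either strand. The ROR1 site is chr1:63901845-63901945, in an intron of this receptor tyrosine kinase-like gene. The LPP-side site is chr3:188077201-188077301, between genes and 76.0 kb from the nearest TSS, that of LPP. The AACS site is chr12:125096611-125096711, in an intron of the acetoacetyl-CoA synthetase gene.
ROR1 site: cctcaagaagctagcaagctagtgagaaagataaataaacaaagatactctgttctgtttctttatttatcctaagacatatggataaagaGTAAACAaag
LPP-side site: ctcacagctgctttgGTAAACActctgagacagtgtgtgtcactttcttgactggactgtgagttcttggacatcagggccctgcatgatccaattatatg
AACS site: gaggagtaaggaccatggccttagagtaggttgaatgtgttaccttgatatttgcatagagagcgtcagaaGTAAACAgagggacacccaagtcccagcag

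By p-value these 3 peaks ranked above the previous ones. The ROR1 summit had 104 reads and a fold of 18.7, the LPP-side summit 97 reads and a fold of 15.3, and the AACS summit 131 reads and a fold of 9.42. All 3 ranked above the 92nd percentile of the C4-2B list (96.1, 93.4 and 92.9), and no C4-2BER interval overlapped them.

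Within the 133 windows the C4-2B list had 2019 peaks, of which 1213 were C4-2B-only and 806 overlapped a C4-2BER peak. The C4-2BER list had 875 peaks there, 57 of them C4-2BER-only. The share of C4-2B peaks missing from C4-2BER was 60.1% inside the windows (Wilson 95% interval 57.9 to 62.2, counting error only) and 37.3% outside (37.1 to 37.6), a contrast that the selection itself makes. In covered length, the C4-2B peaks took up 863.0 kb of the windows and the C4-2BER peaks 427.2 kb. The windows held 2.21% of all autosomal C4-2B-only peaks (2.09 to 2.34) and 0.240% of the C4-2BER-only peaks, so nearly all lost peaks lay elsewhere in the genome.

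A typical window kept part of its open sites. The number of C4-2B peaks per window ran from 8 to 26 with a median of 15, and the number of C4-2B-only peaks from 8 to 14 with a median of 9. C4-2BER had 0 to 16 peaks per window, with a median of 6. In 87 windows C4-2BER had no peak of its own, in 36 it had 1, and in 10 it had 2 or 3. At least 1 peak was shared in 128 windows, and in the other 5 windows C4-2BER had no peak at all.

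The net count fell off smoothly, and the threshold of 8 cut through its tail. There were 79 windows at exactly 8, 30 at 9, 13 at 10, 9 at 11 and 1 each at 12 and 13. Just outside the threshold, 188 windows had a net count of 7. These had a median of 7 C4-2B-only, 12 C4-2B and 5 C4-2BER peaks, against 8, 14 and 6 in the windows at exactly 8. Over all windows with a peak the median net count was 1, with 16172 windows above 0 and 4501 below.

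**Figure D1:**
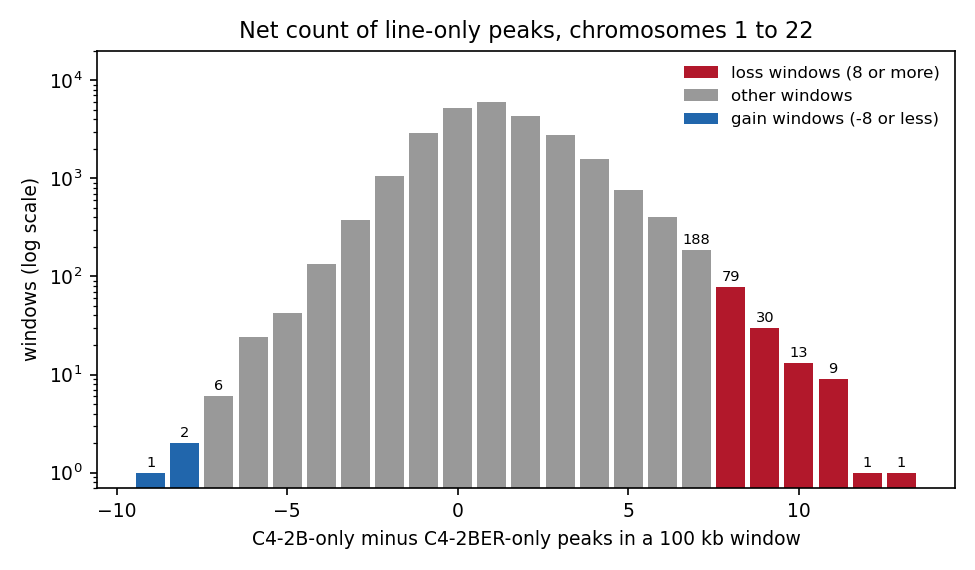
Number of 100 kb windows (log scale) at each net count, C4-2B-only minus C4-2BER-only peaks, with numbers printed on the bars at 7 or more in either direction. The grey bars peak at 1 and the loss windows (red) are the end of the right-hand tail, from 79 windows at 8 to 1 at 13, while the left-hand tail ends at -9.

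Loss windows were scattered over all 22 autosomes. Chromosome 3 had the most, 14, followed by chromosome 1 with 13, and chromosome 21 had 1. As a share of a chromosome's windows with a peak, the values ran from 0.248% on chromosome 6 to 0.835% on chromosome 20. Most stood alone: 125 had no neighbour that was also a loss window, and the remaining 8 formed 4 pairs.

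The counts in neighbouring windows were lower, a drop that the selection of the loss windows makes and that gives no extent of the loss. The loss windows held 9.12 C4-2B-only peaks on average (SE 0.112, n = 133). The adjoining windows that were not loss windows themselves held 3.40 on the left (SE 0.197, n = 129) and 3.32 on the right (SE 0.171, n = 129), and at 500 kb the means were 2.63 and 2.53. All of these lay above 2.12, the mean over all windows with a peak. C4-2BER-only peaks showed no gradient across the neighbouring windows. Their means lay between 0.969 and 1.21 from 100 to 500 kb on either side, all above 0.919, the mean over all windows. A net count above 0 was found in 82.9% of the left and 80.6% of the right neighbours, against 62.6% of all windows.

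**Figure D2:**
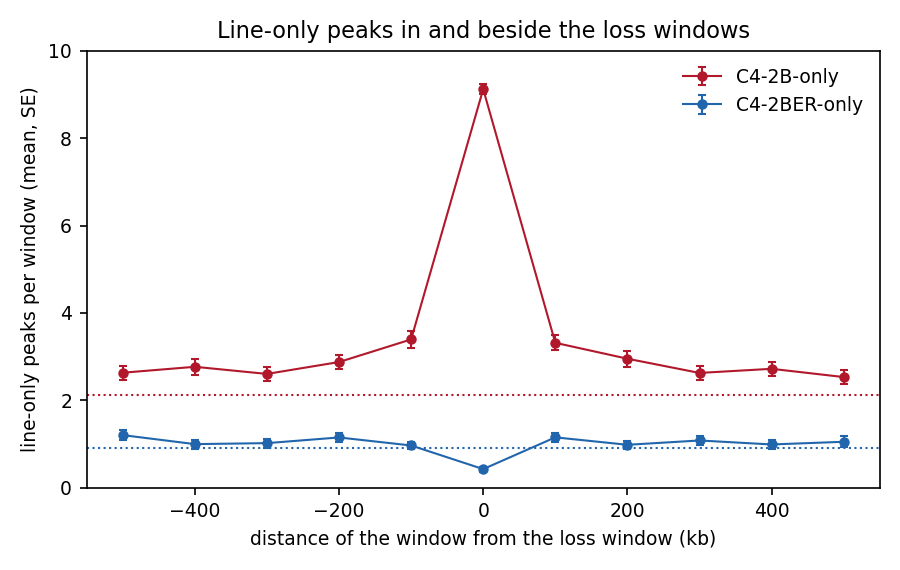
Mean number of C4-2B-only (red) and C4-2BER-only (blue) peaks per window, with the standard error over windows, against the distance from the loss window in kb; dotted lines are the means over all windows with a peak. The red points drop from 9.12 to about 3.4 within 1 window and remain above their dotted line at 500 kb, while the peak and the dip at 0 come from the selection.

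The highest net counts were at PPP3CA, the gene of a catalytic subunit of calcineurin, the calcium-dependent phosphatase. The window with the highest net count, chromosome 4 from 101200001 to 101300000, lies within the gene body, and the next, from 101300001 to 101400000, holds its TSS. The first had 25 C4-2B peaks, 14 of them C4-2B-only, and 11 C4-2BER peaks. The second had 16 C4-2B peaks, 14 of them C4-2B-only, and 5 C4-2BER peaks. In the second window 11 C4-2B-only peaks followed each other over 41.5 kb with no shared peak between them, the longest such series of all 133 windows. Of the 28 C4-2B-only peaks of the pair, 24 lay in introns, 3 at a promoter and 1 between genes.

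Most of these PPP3CA peaks were modest rises over their surroundings. Their fold enrichment ran from 1.98 to 4.05 in the first window and from 1.88 to 5.56 in the second, with medians of 2.57 and 2.58, and 1 and 4 of them reached a −log10 q of 10. The local background under them, which the peak caller takes from the surrounding reads, had a median of 6.20 and 7.58 times the lowest background of the C4-2B list. Under the C4-2BER peaks of the same windows the median was 3.29 and 2.84 times the lowest of that list. Over the 11 and 2 shared peaks of these windows the median ratio of the C4-2B to the C4-2BER background was 2.20 and 1.65, against 1.20 for the floors of the lists. The strongest C4-2B-only peak of the pair, at 101291260 to 101291568, had 53 reads, a fold of 4.05 and a −log10 q of 15.5.

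Of the 10 further windows named by net count, 9 had a net count of 11. On chromosome 14, from 73700001 to 73800000, around MIDEAS (a histone deacetylase complex scaffold), PNMA1 and DNAL1, C4-2B had 26 peaks with 12 of its own and C4-2BER had 14. Here too the median background was high in either line, at 6.82 times the C4-2B floor and 5.90 times the C4-2BER floor, and 7 C4-2B-only peaks reached a −log10 q of 10. The strongest, in an intron at 73763487 to 73763741, had 106 reads and a fold of 3.61.

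On chromosome 3 there were 2 such windows. The window from 195700001 to 195800000 covers parts of the mucin genes MUC20 and MUC4 and had 15 C4-2B peaks, 11 of them C4-2B-only, against 4 C4-2BER peaks, all shared. The window from 177100001 to 177200000 holds the TSS of TBL1XR1, a subunit of the nuclear receptor corepressor complex, and had 20 C4-2B peaks, 11 of them C4-2B-only, all of them intronic, against 9 C4-2BER peaks. Its strongest lost peak, at 177181409 to 177181772, was weak by comparison, with 33 reads and a fold of 4.58.

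The window of CDC42BPA, a kinase that acts downstream of the small GTPase CDC42, looked different. On chromosome 1 from 227300001 to 227400000, 11 of 16 C4-2B peaks were C4-2B-only and C4-2BER had 5 peaks, all shared. The median background under the C4-2B-only peaks was at the floor, and their median fold was 4.94. The strongest, at 227385183 to 227385850, had 32 reads and a fold of 9.43.

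LMO1, a LIM-domain cofactor of transcription, lay in the window on chromosome 11 from 8200001 to 8300000, with 19 C4-2B peaks, 11 of them C4-2B-only, and 7 C4-2BER peaks. AACS, which activates ketone bodies for lipid synthesis, shared the window from 125000001 to 125100000 on chromosome 12 with BRI3BP. There C4-2B had 14 peaks, 12 of its own, and C4-2BER 3, 1 of its own. That C4-2BER-only peak was strong, with 100 reads, a fold of 14.9 and a −log10 q of 81.8. The strongest lost peak of the window is the AACS site printed above. Its −log10 q of 79.3 was the highest of the C4-2B-only peaks named in these 12 windows. On the same chromosome, the window from 101700001 to 101800000 around CHPT1 (phosphatidylcholine synthesis), SYCP3 (a meiotic chromosome axis protein) and GNPTAB (lysosomal enzyme targeting) had 20 C4-2B peaks, 13 of its own, and 9 C4-2BER peaks. Its lost peaks were low, with folds from 2.41 to 4.63.

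A further 2 windows overlapped no protein-coding gene. On chromosome 9 from 89700001 to 89800000, 11 of 18 C4-2B peaks were C4-2B-only, and the strongest, 167.0 kb from the nearest TSS, had 66 reads and a fold of 10.5. On chromosome 21 from 16300001 to 16400000, 13 of 22 were C4-2B-only, with folds of 1.87 to 3.82. With the lists at equal length, from which the weakest C4-2B peaks are gone, this last window had a net count of -1. The PPP3CA windows had 3 and 6 there, and the windows of MIDEAS, MUC20 and CDC42BPA 7 each.

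**Figure D3:**
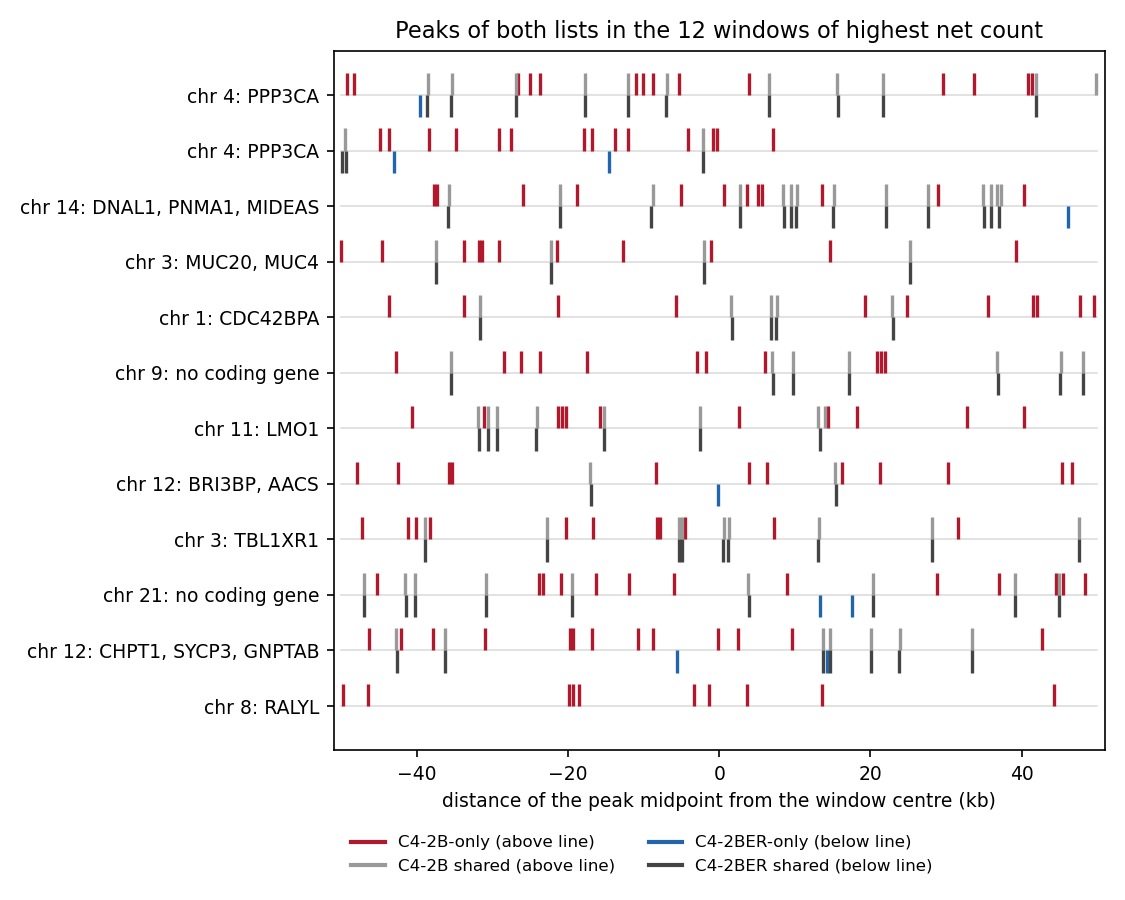
Midpoints of the peaks in the 12 windows of highest net count, one row per window with its protein-coding genes, against the distance from the window centre in kb; marks above a row are C4-2B peaks (red C4-2B-only, light grey shared), marks below it are C4-2BER peaks (blue C4-2BER-only, dark grey shared). In 11 rows red marks lie among shared ones, and in the RALYL row at the bottom nothing stands below the line.

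Further pairs of adjacent loss windows lay at STXBP5L and FRY. At STXBP5L, a syntaxin-binding regulator of vesicle release on chromosome 3 from 121000001 to 121200000, the pair had 17 C4-2B-only peaks among 23 and C4-2BER had 7 peaks, none of its own. At FRY on chromosome 13 from 32100001 to 32300000, there were 17 among 27, and C4-2BER had 11 peaks, none of its own. PTPRN2 was the only other gene that reached into 2 loss windows.

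In 5 windows C4-2BER had no called peak. The lists do not show signal below the calling threshold, so a complete loss of open chromatin cannot be read from this. The clearest of these windows was in RALYL, a gene for an RNA-binding protein, on chromosome 8 from 84800001 to 84900000. All 10 C4-2B peaks there were C4-2B-only and intronic, 8 of them with a −log10 q of 10 or more, and their folds ran from 3.01 to 16.7 with a median of 7.63, the highest median of the 133 windows. The C4-2BER-free stretch around it measured 405.3 kb and held 16 C4-2B peaks, the most among the 63 autosomal stretches without a C4-2BER peak that held 8 or more. Of its 10 peaks, 5 had a forkhead match and 1 an androgen response element. Its net count was 9 with lists of equal length and 10 with the overlap rules changed.

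The other 4 windows without a C4-2BER peak overlapped no protein-coding gene. On chromosome 7 from 85200001 to 85300000 there were 10 C4-2B peaks, within a C4-2BER-free stretch of 137.2 kb holding 12. On chromosome 12 from 126500001 to 126600000 there were 9, in a stretch of 126.6 kb with 10. The windows on chromosome 3 from 84100001 to 84200000 and on chromosome 20 from 10700001 to 10800000 had 8 peaks each, in stretches of 246.1 and 167.2 kb with 9 each. Between 4 and 6 of the C4-2B peaks in each of these 4 stretches had a −log10 q of 10 or more, and the highest fold in each lay between 12.05 and 13.3.

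Only 5 windows remained with a net count of 8 or more when the lists had equal length, and those described here are named for that reason. Besides RALYL, they included the windows of LPAR3 (a lysophosphatidic acid receptor) on chromosome 1 from 84800001 to 84900000 and ELOVL5 (a fatty acid elongase) on chromosome 6 from 53300001 to 53400000, and a window with no protein-coding gene on chromosome 12 from 46400001 to 46500000. The windows of LPAR3 and ELOVL5 each had 7 C4-2B-only peaks with a −log10 q of 10 or more. With equal lists the net count of the 133 windows was above 0 in 129, 0 in 2 and below 0 in 2, with a median of 5. Over all windows with a peak it was above 0 in 9900 and below 0 in 8948, with a median of 0. The shortened list is part of the list by which the 133 windows were chosen, so this contrast follows the selection.

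The C4-2B-only peaks inside the windows were about as strong as other C4-2B-only peaks by p-value but stood on a higher background. Their median −log10 q was 7.60, the same as outside, and 35.4% reached 10 (32.7 to 38.1) against 37.5% outside (37.1 to 37.9). Reads over the summit had a median of 23 (quartiles 16 and 37) inside and 18 (14 and 28) outside. The fold enrichment had a median of 4.16 (3.27 and 5.56) inside and 4.85 (3.85 and 6.49) outside. The background under the summit had a median of 3.94 reads per 200 bp inside and 2.26 outside, and it was at the floor of the list, 2.24 reads, for 17.6% of peaks inside and 48.97% outside. The outside peaks were not matched for crowding: the median number of C4-2B peaks was 15 in loss windows and 5 in other windows with a peak. Whether the higher background goes with that number was not tested. Peak widths were alike, with medians of 281 and 282 bp.

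The windows ranged widely in this respect. In 8 windows the median background of the C4-2B-only peaks was at the floor, in 53 it was more than 2 times the floor, and in 8 more than 5 times. The window medians of the fold ran from 2.57 to 7.63. Low folds went with high backgrounds, which follows in part from the fold being a ratio to that background.

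**Figure D4:**
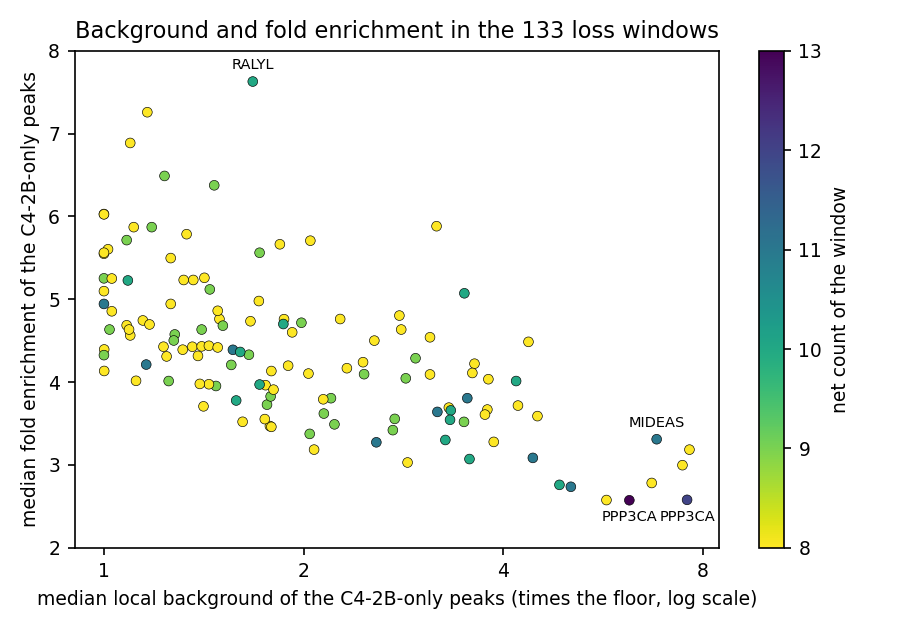
Each point is 1 of the 133 loss windows, placed by the median local background under its C4-2B-only peaks (in multiples of the floor of the C4-2B list, log scale) and their median fold enrichment, and coloured by net count. RALYL lies highest at a fold of 7.63 with a background 1.68 times the floor, and the PPP3CA windows lie at the lower right with folds near 2.6 and backgrounds of 6.20 and 7.58 times the floor.

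Peaks that both lines had inside the windows were also lower in C4-2BER. Over 806 shared pairs the median C4-2B summit had 55 reads and its C4-2BER partner 32, a median ratio of 1.51, against 1.31 over 89890 pairs outside. The ratio of the floors of the lists, a measure of relative depth, was 1.20, so the depth-corrected medians were 1.26 inside and 1.10 outside. The rank of the peak within its own list was lower in C4-2BER for 61.0% of pairs inside (57.6 to 64.3) and 56.4% outside (56.1 to 56.7). The background under shared pairs differed as well, with a median C4-2B to C4-2BER ratio of 1.49 inside and 1.20 outside. Of the 128 windows with shared pairs, the median read ratio exceeded 1.20 in 109 and the median background ratio in 111. These values come from the same contrast as the selection and are a description. A lower background in C4-2BER moved with the loss of peaks, and its part in the loss was not tested.

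The windows were richer in genes than the average window with a peak. Of the 133, 109 overlapped a protein-coding gene (82.0%, 74.6 to 87.6), and 72 held the canonical TSS of one (54.1%, 45.7 to 62.4), against 67.3% and 39.5% of the other windows with a peak. Windows with 8 to 26 C4-2B peaks that were not loss windows, 7036 in all, overlapped a gene in 88.9% and held a TSS in 67.2% (66.1 to 68.3). Set beside windows with that range of C4-2B peaks, TSSs were thus less frequent in the loss windows, although those windows had a lower median number of peaks, 10 against 15. In 37 loss windows a gene passed through without its TSS, and 24 overlapped no protein-coding gene.

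By position, 9.23% of the C4-2B-only peaks inside the windows lay within 2000 bp of a TSS (7.73 to 10.99), 3.22% in exons, 50.2% in introns (47.4 to 53.0) and 37.3% between genes (34.7 to 40.1). Outside, the shares were 6.56% (6.35 to 6.77), 3.14%, 43.9% (43.5 to 44.3) and 46.4% (46.0 to 46.8). With only peaks of a −log10 q of at least 5 the promoter shares were 6.59% inside and 6.55% outside, and with at least 10 they were 8.59% (5.89 to 12.4) and 6.87%. Shared peaks in the windows were promoters in 21.6% (18.9 to 24.6), as outside (21.3%). Base composition differed slightly, with a median GC content around the summit of 48.3% inside and 45.8% outside.

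The promoters of the 124 genes with a canonical TSS in a loss window were mostly open in both lines. A peak of both lists lay within 2000 bp of a TSS for 95 of them (76.6%), of neither for 15, of C4-2B alone for 13 (10.5%) and of C4-2BER alone for 1. Over all 18773 autosomal protein-coding genes the shares were 78.7%, 15.1%, 2.89% and 3.31%, and the excess of promoters with a peak in C4-2B alone follows the selection. The 13 genes with a peak there in C4-2B alone, listed after their values were seen, were GJB5, CTSE, RHEX, LEFTY1, IL20RB, ANGPT2, SYCP3, ALOX15B, KRTAP16-1, CD22, FFAR3, CHRNA4 and MCHR1. At 12 of them at least 1 of these peaks was C4-2B-only. The exception was ALOX15B, which encodes an arachidonate 15-lipoxygenase. Its 1 peak, of 61 reads and a fold of 12.5, was overlapped by a C4-2BER interval whose summit lay more than 2000 bp from a TSS. The strongest promoter peak of ANGPT2, which encodes the vessel ligand angiopoietin 2, was overlapped in the same way, and its strongest C4-2B-only peak had 77 reads and a fold of 6.77. The strongest at CD22, a B-cell lectin gene, was C4-2B-only and had 47 reads and a fold of 9.72. CCN4 was the single gene with a promoter peak in C4-2BER alone, of 19 reads and a fold of 5.03.

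Of 6 gene lists, only the androgen-regulated list had members in the windows. Of its 36 autosomal genes, 3 overlapped a loss window (8.33%), beside 194 of all 18773 (1.03%). A canonical TSS lay in a loss window for 1 of the 36 and for 124 of the 18773. Long genes overlap a window more easily, and the median length was 52.6 kb for the 194 genes and 27.7 kb for all. The lists of luminal and pioneer factors (20 genes), steroid metabolism (25), neuroendocrine genes (19), neuronal adhesion (25) and housekeeping controls (14) had 0 members there. At the share of 1.03% over all genes, 0 is the likely count for lists of this size. The lists were chosen with earlier results of these data known, so these counts are a description.

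ZBTB16, an androgen-induced zinc finger repressor, has its TSS in the window on chromosome 11 from 114000001 to 114100000. C4-2B had 21 peaks there, 10 of its own, and C4-2BER had 11 peaks, 2 of its own. The strongest C4-2B-only peak, at 114080181 to 114080676, had 76 reads and a fold of 4.64. ABCC4, an efflux transporter of organic anions and cyclic nucleotides, was crossed by the window on chromosome 13 from 95100001 to 95200000, where C4-2B had 16 peaks, 10 of its own, and C4-2BER had 7, 1 of its own. Its strongest C4-2B-only peak, at 95100327 to 95101045, had 40 reads and a fold of 7.98.

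PMEPA1, an androgen-induced membrane protein that dampens TGF-beta signalling, reached into the window on chromosome 20 from 57600001 to 57700000, which also overlapped ZBP1. C4-2B had 13 peaks there, 8 of its own, and all 5 C4-2BER peaks were shared. Its lost peaks were weak, as 1 of the 8 reached a −log10 q of 10, and the net count was 3 with only peaks of a −log10 q of at least 5. In none of these 3 windows did a C4-2B-only peak hold an androgen response element within 100 bp of its summit, and forkhead matches numbered 3 at ZBTB16, 1 at ABCC4 and 0 at PMEPA1. The promoters of all 3 genes carried peaks of both lines.

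For the androgen response element and the forkhead motif, the share of peaks with a match differed more between C4-2B-only and shared peaks than between the inside and the outside of the windows. Shared peaks also differ in composition. Inside the windows their median GC content was 53.2% against 48.3% for C4-2B-only peaks, and 21.6% against 9.23% lay at promoters. The contrast with shared peaks was not weighted for either. An androgen response element lay within 100 bp of the summit of 32 of the 1213 C4-2B-only peaks inside the windows (2.64%, 1.87 to 3.70) and of 2.83% outside (2.69 to 2.97), a difference of -0.19 percentage points (-0.97 to 0.88). Among shared C4-2B peaks the match was found in 7 of 806 inside (0.868%, 0.421 to 1.78) and in 0.791% outside. Over all autosomal C4-2B peaks it was found in 1.56%. The 32 matches were spread over 30 windows, 2 of which held 2 each. None of the 57 C4-2BER-only peaks had one, which allows a share of up to 6.31% (upper Wilson bound).

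The forkhead motif was found near 202 of the C4-2B-only summits inside (16.7%, 14.7 to 18.9), 20.3% of those outside (19.9 to 20.6), 9.55% of the shared peaks inside (7.71 to 11.8) and 13.3% of those outside (13.1 to 13.5). Over all autosomal C4-2B peaks it was found in 15.9%. It was present in 103 windows, and 30 had 3 or more. The C4-2B-only share was 3.62 percentage points lower inside than outside (interval of the difference inside minus outside, -5.64 to -1.39). The forkhead motif is rich in A and T, and the inside peaks had the higher GC content. When the outside peaks were weighted to the GC content of the inside peaks, their share became 17.6%, within the interval of the inside share. With lists of equal length the share was 27.7% of 47 peaks inside (16.9 to 41.8) and 22.9% outside. That interval includes the outside share, so no order can be read from it.

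The HOXB13 motif showed the same direction, with 2.89% of C4-2B-only peaks inside and 4.88% outside (difference -1.99 percentage points, -2.82 to -0.88) and 4.16% outside after the weighting. Over all autosomal C4-2B peaks it was found in 4.49%. For the other motifs the interval of the difference included 0. AP-1 was found in 8.41% of C4-2B-only peaks inside, 8.18% outside and 7.38% of all C4-2B peaks. GATA was found in 3.54%, 4.50% and 3.65%, the E-box in 13.4%, 13.1% and 13.7%, and GRHL in 3.13%, 3.43% and 3.72%. The octamer (1.65% inside and 1.602% outside), ETS (0.247% and 0.215%), NFI (0.0824% and 0.0654%) and HNF1 motifs (0% and 0.00187%) were rare. The CTCF core motif, the mark of loop anchors, was rare among C4-2B-only peaks, with 0.495% inside and 0.730% outside, and more frequent among shared peaks, with 3.47% inside (2.41 to 4.97) and 4.91% outside (4.78 to 5.06). These intervals count each peak as independent, although 8 to 14 C4-2B-only peaks share a window. A match is a stretch of letters and not evidence of binding, and 24 windows had C4-2B-only peaks with neither an androgen response element nor a forkhead match.

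**Figure D5:**
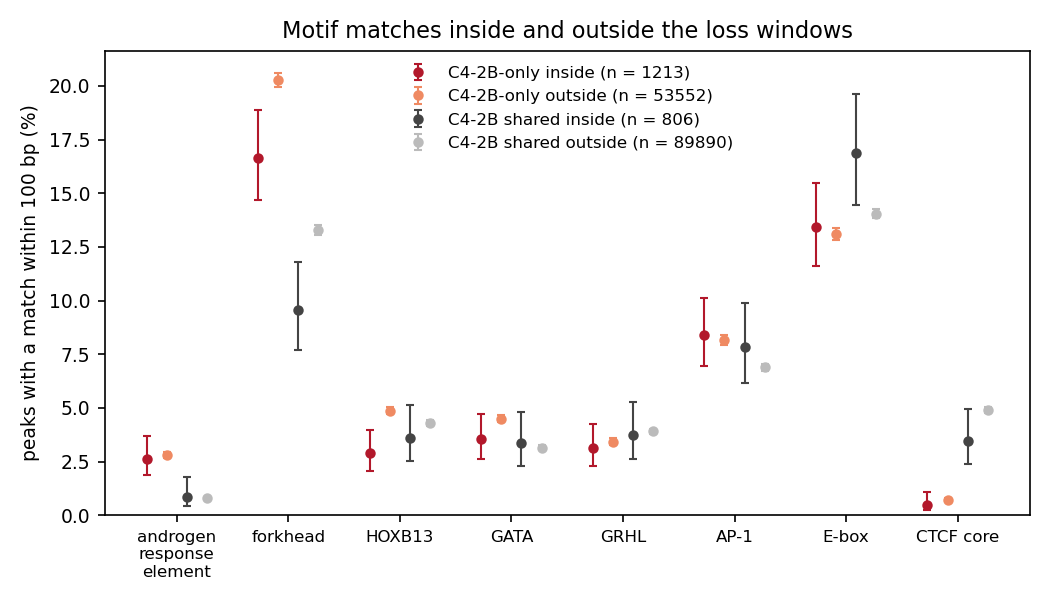
Percentage of peaks with a motif match within 100 bp of the summit, with Wilson 95% intervals, for C4-2B-only and shared C4-2B peaks inside and outside the loss windows. For the androgen response element both C4-2B-only groups lie near 2.7% and both shared groups near 0.8%, and for forkhead the inside groups (16.7% and 9.55%) lie below the outside groups (20.3% and 13.3%).

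The 3 windows of the opposite kind were too few to compare with. They lay on chromosome 6 from 27200001 to 27300000 (PRSS16 and POM121L2), on chromosome 17 from 48500001 to 48600000 across HOXB1 to HOXB6, and on chromosome 21 from 31500001 to 31600000 (TIAM1), with 8, 10 and 9 C4-2BER-only against 0, 2 and 0 C4-2B-only peaks. The C4-2B list held 149676 intervals and the C4-2BER list 118728, and with lists of equal length the windows of this kind numbered 12 against 5 loss windows.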

How the data were processed

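ATAC-seq libraries of C4-2B and C4-2BER, 2 per line, had been aligned to hg38 with Bowtie2. Reads had been filtered by mapping quality and duplicate reads removed with Picard. The libraries were then merged by line and peaks called with MACS2 (version not given in the sources used here). Submitters' notes also name bedtools 2.17. Depth per library is unknown. The deposited files give, per summit, the authors' fold (a ratio of reads to local background), −log10 p and −log10 q values, a score (not used) and the summit offset in bp. Each interval was counted once, with its summit of highest −log10 p. Summit reads and background were recovered from the deposited fold and −log10 p, exactly for 100% of summits (tolerance 0.001 in −log10 p), after the functions were tested on simulated data. Genes came from GENCODE 44, with TSSs of protein-coding transcripts.

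The members and lists were chosen with earlier results of these data known. A loss window had a net count of 8 or more. The 12 windows of highest net count (ties by the number of C4-2B-only peaks with −log10 q of 10 or more, then genome order), up to 3 runs of adjacent windows and windows with genes of the lists were named. A few windows and genes are not reported here. Of 12 motifs, exact consensus matches on both strands within 100 bp of the summit were counted, with no correction for overlap between motifs. The letters were TGTTTAC or TATTTAC for forkhead, CCAATAAA, CCCATAAA, CTAATAAA or CTCATAAA for HOXB13, AACCNGTT for GRHL, CCGGAAGT for ETS, ATGCAAAT for the octamer, CAGCTG for the E-box, AGATAAG for the motif of the GATA factors and TGACTCA or TGAGTCA for AP-1. The androgen response element, CTCF core, NFI and HNF1 are longer consensus motifs. The 95% intervals are Wilson intervals, and intervals of differences are Newcombe's. They cover counting error only, as clustering and any duplicates left after their removal are not modelled. Alternatives were −log10 q of at least 5 or 10, lists of equal length, C4-2B scaled to the C4-2BER depth, 50% reciprocal overlap, gaps of up to 500 bp, windows starting at 50 kb, a net count of 10, motifs within 250 bp and promoters within 1000 bp. Weighting by GC decile was added after seeing the data. Python 3.11.15, pandas 2.3.3, scipy 1.17.1, statsmodels 0.14.6 and pysam 0.24.0 were used.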

Additional observations from a re-analysis of the deposited data

How the results depend on the processing

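A fit that pairs libraries had no data to work on: no paired analysis was possible because each line has only a merged peak list, and for that reason no single replicate could be left out. Of 80 recomputed values, 42 lay within 1.5 times the count or within the 95% interval of the share. The loss windows numbered 79 with −log10 q of at least 5, 34 with at least 10, 5 with lists of equal length and 24 at a net count of 10; 36, 12, 5 and 24 of these were among the 133. Windows starting at 50 kb overlapped 46 of the 133. The opposite windows numbered 0, 12 and 0 with −log10 q of at least 10, equal lists and a net count of 10. Scaling C4-2B to the C4-2BER depth changed only the reads and background at each summit, and peaks were not called again. This removed 0.172% of the C4-2B peaks and left 130 of the 133 windows. The check could remove few peaks by its design, so it cannot say what peak calling at equal depth would have found.

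The share of C4-2B-only peaks inside was 1.38% and 0.739% with −log10 q of at least 5 and 10, 0.140% with equal lists, 2.02% with reciprocal overlap, 1.65% with gaps allowed, 2.05% with shifted windows and 0.488% at a net count of 10. The androgen response element share inside was 1.37% with −log10 q of at least 10 (4 of 291 peaks) and 1.498% at a net count of 10, and outside 3.52% with equal lists, 2.60% with reciprocal overlap and 3.49% within 250 bp. The forkhead share inside was 20.1% with −log10 q of at least 5, 27.7% with equal lists and 25.9% within 250 bp. Outside it was 21.3% and 22.7% with −log10 q of at least 5 and 10, 22.9% with equal lists, 19.8% with reciprocal overlap, 20.9% with gaps allowed, 29.5% within 250 bp and 17.6% after GC weighting. The promoter share inside was 6.59% with −log10 q of at least 5, 6.38% with equal lists, 11.6% with reciprocal overlap, 6.45% with gaps allowed and 5.19% within 1000 bp. Outside it was 6.87% with −log10 q of at least 10, 8.76% with reciprocal overlap, 5.32% with gaps allowed and 3.61% within 1000 bp. Stricter lists hold fewer peaks, and other causes were not tested.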

Other observations

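Chromosome X was not tiled by the rule. Tiled in the same way, it had 1270 windows with a peak, of which 1 had a net count of 8 or more, with a value of 11. Its lists held 1674 C4-2B-only and 855 C4-2BER-only peaks.

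Long noncoding RNA genes overlapped 80 of the 133 loss windows and microRNA genes 16. The shares over all windows with a peak were not computed, so these counts cannot be read as a trait of the loss windows. Of the 24 windows with no protein-coding gene, 16 overlapped a long noncoding RNA gene and 8 did not.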
